A study of Mus musculus with 4 samples.

Results

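The genes described here are 10 mouse genes of the Leydig cell, the androgen-making cell between the tubules of the testis. They were chosen by name, for their known function, as the entries STAR, CYP11A1, CYP17A1, HSD3B1, HSD3B6, HSD17B3, SRD5A1, INSL3, NR5A1 and SCARB1, which are 10 of the 112302 entries in each deposited file. The choice was made with earlier results of these data known, so the counts below are not independent of it. All 10 reached at least 1 RPKM (reads per kilobase of gene model, scaled to the reads of the library) in at least 1 library, as did 42964 entries in all. The data are 4 RNA sequencing libraries of BALB/C mouse testis, with 1 library at each stage: E14 and E18 (days of embryonic life), and postnatal ages of 3 weeks and 6 months. No treatment or genetic change is named in the labels, the RNA was bought from a supplier, and how many animals were pooled is not given in the sources used here. With 1 library per stage there is no replicate check and no p-value, so "higher" and "lower" describe these libraries, and the intervals below, exact at 95%, cover counting error only.

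The library labelled E14 differed from the others in several tissue markers. Of 18 Sertoli cell markers, 7 reached 1 RPKM there, against 16 at E18, 17 at 3 weeks and 14 at 6 months. Amh, which fetal Sertoli cells make, was at 0.262 RPKM in the E14 library against 11.4 in the E18 library, with 0.478 at 3 weeks and 0.218 at 6 months. Other markers of the list were not low at E14: Sox9 was at 4.00 RPKM there, above its 2.12 at E18, and Trf at 25.5 against 13.4. Xist, which silences an X chromosome in female cells, reached 12.7 RPKM in the E14 library and no more than 0.158 in the others. The Y-linked Ddx3y had 1.47 RPKM at E14 against 4.70 at E18, 3.46 at 3 weeks and 0.923 at 6 months. Compared with the E18 library, Uty (1.00 against 3.17) and Kdm5d (0.271 against 0.742) were also lower at E14. Only the 6-month library had less of Ddx3y, Uty and Kdm5d than the E14 library. Eif2s3y was lowest at E14 (1.04 against 3.16 or more). Every value against E14 therefore compares the libraries as labelled, and the comparisons among E18, 3 weeks and 6 months do not use that library. The reads behind the libraries numbered from 33952471 at 3 weeks to 38903334 at E14, so that 3 reads in Star, for example, correspond to between 0.0191 and 0.0218 RPKM.

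Steroid hormones are made from cholesterol. Scarb1, the receptor SR-BI, takes up cholesterol from lipoproteins, and Star moves it to the inner mitochondrial membrane, where Cyp11a1 cuts off its side chain to give pregnenolone. The 3-beta-hydroxysteroid dehydrogenases (Hsd3b1 and Hsd3b6) and Cyp17a1 carry the product on to androstenedione, Hsd17b3 makes testosterone from it, and Srd5a1 reduces testosterone and its precursors at carbon 5. Nr5a1 encodes steroidogenic factor 1, a transcription factor of steroid-making cells, and Insl3 is a peptide hormone of the Leydig cell that acts in testicular descent. Mice form a fetal population of Leydig cells and later an adult one, which passes through an immature stage before puberty. In the fetal mouse testis the last step to testosterone is known to take place in Sertoli cells.

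Hsd3b1 and Hsd3b6 are neighbouring copies of one enzyme gene on chromosome 3 whose relative level turned over between E18 and 6 months, so the 250 bases before each start site are shown. They come from RefSeq on GRCm38.p6 and read 5′ to 3′ on the minus strand, at chr3:98859795-98860044 for Hsd3b1 and chr3:98814444-98814693 for Hsd3b6. Capitals mark a GATA factor motif, AGATAA, which lies on the minus strand of the chromosome in Hsd3b6 and on the opposite strand in Hsd3b1.
Hsd3b1: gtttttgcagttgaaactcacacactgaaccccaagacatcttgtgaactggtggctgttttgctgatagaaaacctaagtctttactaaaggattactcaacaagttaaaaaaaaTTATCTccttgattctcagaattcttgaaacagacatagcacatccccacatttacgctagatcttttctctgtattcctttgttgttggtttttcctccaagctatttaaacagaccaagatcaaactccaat
Hsd3b6: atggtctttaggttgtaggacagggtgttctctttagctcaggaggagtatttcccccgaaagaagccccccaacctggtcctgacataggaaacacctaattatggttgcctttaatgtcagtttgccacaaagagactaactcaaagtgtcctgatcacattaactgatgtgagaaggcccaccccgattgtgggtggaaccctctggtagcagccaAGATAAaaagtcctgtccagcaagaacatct

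The 2 genes are alike where they code and not before their starts. Their longest open reading frames, 1122 bases each in the GENCODE transcripts, had 1010 identical bases (90.0%). In an alignment of the 250 bases before the starts, 136 bases were identical (54.4%), within the 47.2% to 58.8% of the 19 other pairings of upstream windows of these genes. Of the stretches of 50 bases in Hsd3b6 transcripts, 2.11% also occur in Hsd3b1 and 15.6% in any other gene, mostly Hsd3b2 and Hsd3b3. How the authors treated reads from such stretches is not given in the sources used here, so the levels of close copies are uncertain. Of the same stretches in the other copies, 100% occur in another gene for Hsd3b4, 25.1% for Hsd3b2, 21.2% for Hsd3b5 and 6.69% for Hsd3b3.

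RefSeq promoter windows of 300 bases, 250 before and 50 after the start, matched 6 of the 10 genes by symbol, in 7 windows. The letters AAGGTCA, a site of the kind bound by steroidogenic factor 1, were found on neither strand in any of the 7, and 4.72% of all 32851 windows held them. The GATA letters TGATAA or AGATAA were found in the windows of Hsd3b1 and Hsd3b6, against 18.6% of all windows. TATAAA and the cyclic AMP response element TGACGTCA were in none of the 7, against 13.6% and 1.79% of all windows. These are descriptions of letters in a short window.

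The summed level of the 10 genes was lowest in the library labelled E14 and highest at 6 months. It was 13.8 RPKM at E14 and 163 at E18, then 80.2 at 3 weeks and 593 at 6 months. Insl3 alone supplied 6.25% of the sum at E14 and 20.7% at E18, then 24.4% at 3 weeks and 60.2% at 6 months. Without Insl3 the sum of the other 9 genes was again lowest at E14 (12.96 RPKM) and highest at 6 months (236), with 129 at E18 and 60.6 at 3 weeks. In whole-tissue RNA, fewer Leydig cells and less RNA per cell cannot be told apart.

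**Figure D1:**
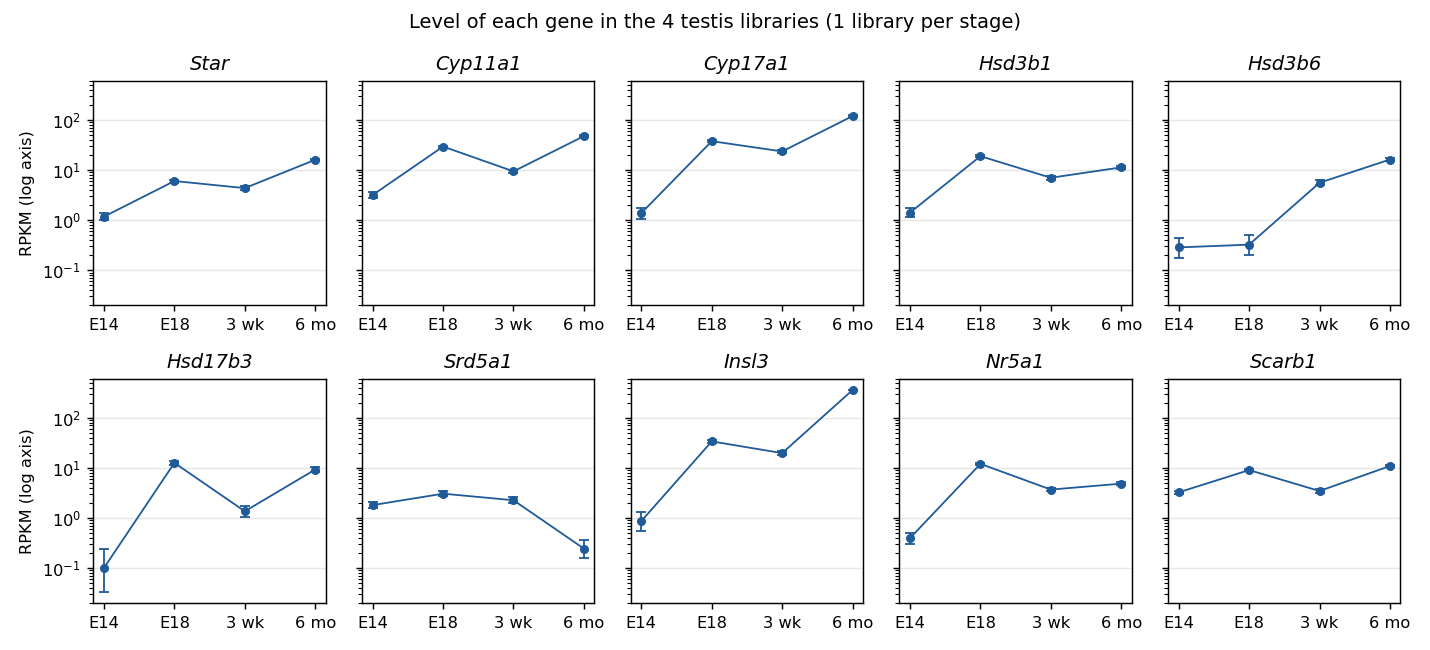
RPKM (log axis) of each of the 10 genes in the 4 libraries; points are single libraries and bars are exact 95% Poisson intervals of the reads. All but Hsd3b6 and Srd5a1 are lower at 3 weeks than at E18 and 6 months. Hsd3b6 climbs from 0.324 RPKM at E18 to 16.2 at 6 months, and Srd5a1 ends at 0.243. With libraries rescaled over ribosomal protein genes, Star, Cyp17a1 and Insl3 are higher at 3 weeks than at E18.

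At E18, 8 of the 10 genes were at least 2-fold higher than at E14 on the log2(RPKM + 1) scale, and 0 were lower. Among all 42964 entries, 2.17% were higher and 1.34% lower. The median difference of the 10 was 2.96, beside 0.03 over all entries. Insl3 had the largest difference (4.22), followed by Cyp17a1 (4.02) and Hsd17b3 (3.62), while Hsd3b6 (0.04) and Srd5a1 (0.53) did not pass 2-fold. In the same comparison 12 of 18 Sertoli cell markers were higher and 0 lower, 8 of 8 measured kidney tubule markers were higher and 5 of 9 measured liver markers were lower. The part of these tissue differences in the steroid genes was not tested.

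At 3 weeks, 1 gene was higher than at E18 and 5 were lower, beside 32.0% of all entries higher and 10.5% lower. The median was -0.96 against 0.46 over all entries. Hsd3b6 was the higher gene (2.31). Hsd17b3 (-2.53), Cyp11a1 (-1.55), Nr5a1 (-1.47), Hsd3b1 (-1.31) and Scarb1 (-1.17) were lower, and Star, Cyp17a1, Srd5a1 and Insl3 lay between -0.75 and -0.32. Rescaling the libraries over ribosomal protein genes left Hsd3b6 higher and Hsd17b3 lower past 2-fold. It put Star, Cyp17a1, Srd5a1 and Insl3 above their E18 level instead (0.44 to 0.64), beside a median of 1.13 over all entries. The summed RPKM of 16 spermatocyte and spermatid markers was 8.60 at E18 and 848 at 3 weeks, and all RPKM share 1 total per library. The share of that in the lower steroid gene values was not tested.

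At 6 months, 7 genes were higher than at 3 weeks and 1 was lower, beside 9.73% of all entries higher and 14.1% lower. The median was 1.54 against -0.31 over all entries. Insl3 led (4.12), followed by Cyp17a1 (2.30), Cyp11a1 (2.22) and Hsd17b3 (2.12), and Star, Scarb1 and Hsd3b6 lay between 1.39 and 1.67. Srd5a1 was lower (-1.38). Hsd3b1 (0.62) and Nr5a1 (0.32) did not pass 2-fold. These higher values stood in a library whose spermatocyte and spermatid markers summed to 7207 RPKM.

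The adult library was also set against the fetal E18 library, which shares a library with each of the preceding comparisons. Higher at 6 months were 4 genes, Hsd3b6 (3.70), Insl3 (3.37), Cyp17a1 (1.64) and Star (1.28), and lower were 2, Srd5a1 (-1.70) and Nr5a1 (-1.15). Among all entries 32.9% were higher and 15.4% lower, so 4 of 10 is near the background share, and the medians were 0.46 for the 10 genes and 0.20 over all entries. The split of 4 higher and 2 lower was 4 and 1 with libraries rescaled to an equal sum, 5 and 1 by the median of ratios, 6 and 1 over ribosomal protein genes and 3 and 3 over protein-coding genes. Of all entries 35.1%, 37.4%, 51.1% and 26.6% were higher in the same order, so the counts of higher genes were again near the background. The shares of all entries lower ran from 3.81% over ribosomal protein genes to 24.1% over protein-coding genes. Nr5a1 lost its call with an equal sum (-0.98) and by the median of ratios (-0.85), and stood at 0.14 over ribosomal protein genes.

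**Figure D2:**
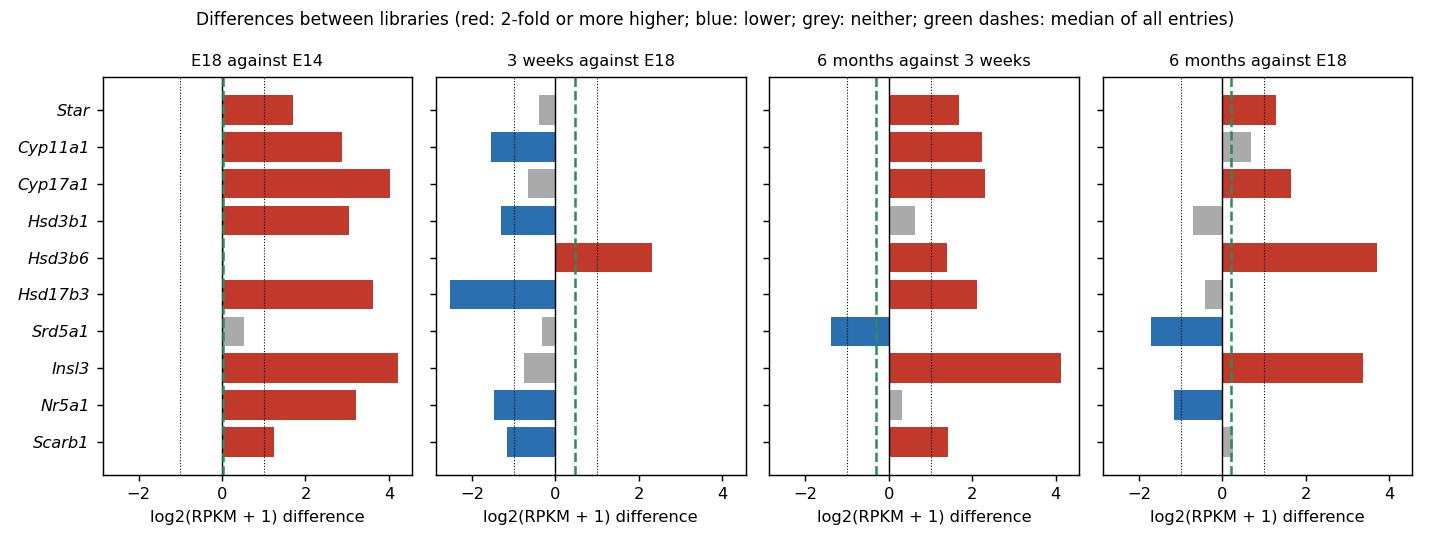
Difference in log2(RPKM + 1) of each gene, later minus earlier library, in 4 comparisons; dotted lines mark 2-fold and the green dashes the median of all 42964 entries. Insl3 has the longest bar at E18 against E14 (4.22) and at 6 months against 3 weeks (4.12), and Hsd3b6 is the bar that points right at 3 weeks against E18 (2.31).

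Cholesterol uptake and transfer came first in the pathway. Scarb1 (chr5:125277087-125341094, minus strand, GENCODE vM21 on GRCm38) had a level of 3.23 RPKM at E14 and 8.996 at E18, then 3.44 at 3 weeks and 10.8 at 6 months. Its E14 and 3-week levels did not differ beyond counting error (ratio 1.06, interval 0.960 to 1.18). The order of E18 and 6 months was reversed with libraries rescaled over protein-coding genes. Liver, which also uses this receptor, had a summed marker level of 327 RPKM at E14 and 78.7 at E18, then 3.73 at 3 weeks and 1.69 at 6 months, and the part of that in the Scarb1 level was not tested.

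Star (chr8:25806555-25815982, plus strand) had a level of 1.18 RPKM at E14 and 6.04 at E18, then 4.36 at 3 weeks and 16.1 at 6 months. Neighbours in the order of its levels differed beyond counting error, and the 6-month level was 2.66 times that at E18 (interval 2.46 to 2.88). Star was below Scarb1 at E14 and E18 and above it later: the ratio of Scarb1 to Star per length was 2.75 (2.34 to 3.24) at E14 and 1.49 (1.37 to 1.62) at E18, then 0.788 (0.706 to 0.879) at 3 weeks and 0.675 (0.638 to 0.715) at 6 months. A ratio within a library does not depend on how libraries are scaled.

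Cyp11a1 (chr9:58006411-58027023, plus strand), the first enzyme, had a level of 3.18 RPKM at E14 and 29.5 at E18, then 9.43 at 3 weeks and 47.7 at 6 months. Cyp17a1 (chr19:46667165-46673172, minus strand) stood at 1.38, 37.8, 23.6 and 119.8 RPKM in the same order. Cyp11a1 was thus above Cyp17a1 at E14 and below it in the later libraries. The ratio of Cyp17a1 to Cyp11a1 was 0.435 (0.321 to 0.582) at E14 and 1.28 (1.19 to 1.37) at E18, then 2.50 (2.25 to 2.78) at 3 weeks and 2.51 (2.40 to 2.63) at 6 months, so both postnatal libraries had overlapping intervals although the levels of both genes were about 5 times as high at 6 months (5.06 for Cyp11a1 and 5.08 for Cyp17a1). Star relative to Cyp11a1 moved within a narrower band, from 0.205 (0.188 to 0.222) at E18 to 0.463 (0.412 to 0.520) at 3 weeks.

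The 3-beta-hydroxysteroid dehydrogenase pair changed places. Hsd3b1 (chr3:98852194-98859794, minus strand) had a level of 1.41 RPKM at E14 and 18.9 at E18, then 7.02 at 3 weeks and 11.3 at 6 months. Hsd3b6 (chr3:98805504-98814443, minus strand), whose upstream bases are printed with those of Hsd3b1, stood at 0.285, 0.324, 5.57 and 16.2 RPKM. The Hsd3b6 levels at E14 and E18 rested on 20 reads each and did not differ beyond counting error.

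The ratio of Hsd3b6 to Hsd3b1 was 0.202 (0.118 to 0.328) at E14 and 0.0171 (0.0104 to 0.0266) at E18, then 0.794 (0.688 to 0.917) at 3 weeks and 1.43 (1.31 to 1.58) at 6 months. Hsd3b1 was therefore 58.4 times Hsd3b6 at E18, and Hsd3b6 the higher of the pair at 6 months. Against E18, Hsd3b1 was at -0.69 on the log2 scale at 6 months, or 0.68 with libraries rescaled over ribosomal protein genes. The other copies stayed low: Hsd3b2 reached 0.682 RPKM and Hsd3b3 0.964, both at 6 months, Hsd3b4, which has no stretch of its own, 1.08 at E18, and Hsd3b5 at most 0.105. The copies most like Hsd3b6 were thus at least an order of magnitude below it at 6 months.

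Hsd17b3 (chr13:64058266-64089230, minus strand) had its peak in the fetus. It stood at 0.0999 RPKM at E14, on 5 reads, and at 12.5 at E18, 1.35 at 3 weeks and 9.21 at 6 months. The E18 level was 1.36 times the 6-month level (1.198 to 1.55), an order that was reversed with libraries rescaled over ribosomal protein genes. Relative to Cyp17a1 it was highest at E18, at 0.332 (0.300 to 0.367), against 0.0573 (0.0433 to 0.0747) at 3 weeks and 0.0769 (0.0694 to 0.0849) at 6 months, with overlapping intervals in the postnatal libraries. Hsd17b1, an enzyme of the same reaction that fetal Sertoli cells are known to make, shared the E18 peak, with 0.115 RPKM at E14 and 13.3 at E18, then 0.308 at 3 weeks and 0.0834 at 6 months.

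Srd5a1 (chr13:69573449-69611442, minus strand) was alone among the 10 in having its lowest level at 6 months. It had a level of 1.80 RPKM at E14 and 3.04 at E18, then 2.25 at 3 weeks and 0.243 at 6 months, the last on 26 reads. The order among the first 3 libraries depended on the scaling, with E18, E14 and 3 weeks in turn by the median of ratios or over protein-coding genes and 3 weeks first over ribosomal protein genes, while 6 months was last in each. Its ratio to Hsd17b3 was highest at 17.98 (7.58 to 55.9) at E14, against 0.242 (0.210 to 0.279) at E18, 1.66 (1.24 to 2.25) at 3 weeks and 0.0264 (0.0170 to 0.0392) at 6 months. Srd5a1 was thus above Hsd17b3 at 3 weeks and far below it at E18 and in the adult.

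The other enzymes of 5-alpha reduction were low. Srd5a2 stood between 0.131 and 0.722 RPKM and Srd5a3 between 0.318 and 1.31. Akr1c14, which acts on the products of 5-alpha reductase, had a level of 0.208 RPKM at E14 and 0.914 at E18, then 0.634 at 3 weeks and 0.179 at 6 months. Its ratio to Srd5a1 was 0.301 (0.236 to 0.380) at E18, 0.282 (0.211 to 0.374) at 3 weeks and 0.735 (0.384 to 1.38) at 6 months, where Akr1c14 and Srd5a1 had 19 and 26 reads. On the same strand, exons of the predicted gene Gm17108 cover 476 of the 2909 annotated exon bases of Srd5a1, where reads of the 2 genes cannot be told apart.

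Nr5a1 (chr2:38692656-38714542, minus strand) had a level of 0.394 RPKM at E14 and 11.96 at E18, then 3.67 at 3 weeks and 4.82 at 6 months. Its peak was at E18, 2.48 times the 6-month level (2.27 to 2.71), or at 6 months when libraries were rescaled over ribosomal protein genes. Relative to Cyp11a1, a known target of the factor, its intervals overlapped at E18 (0.405, 0.379 to 0.433) and 3 weeks (0.389, 0.345 to 0.439), and it was lower at 6 months (0.101, 0.0932 to 0.110) and E14 (0.124, 0.0924 to 0.164). Sertoli cells also make Nr5a1, and the 18 Sertoli markers summed to 44.7 RPKM at E14 and 226 at E18, then 295 at 3 weeks and 223 at 6 months. The part of those cells in the Nr5a1 level was not tested.

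Insl3 (chr8:71689214-71690575, plus strand) spanned the widest range of the 10, from 0.864 RPKM at E14, on 21 reads, to 33.7 at E18, 19.6 at 3 weeks and 357 at 6 months. The 6-month level was 10.6 times that at E18 (9.83 to 11.5) and 18.2 times that at 3 weeks (16.5 to 20.2). Relative to Cyp11a1 it was higher in each later library: 0.272 (0.165 to 0.426) at E14 and 1.14 (1.05 to 1.24) at E18, then 2.08 (1.83 to 2.36) at 3 weeks and 7.49 (7.19 to 7.82) at 6 months. It ranked behind Cyp17a1 at E18 and 3 weeks and was 2.98 times Cyp17a1 at 6 months (2.88 to 3.09).

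Insl3 shares exon bases with Jak3, a kinase gene annotated on the same strand: Jak3 exons cover 404 of the 623 exon bases of Insl3. The entry JAK3 had a level of 0.336 RPKM at E14 and 4.05 at E18, then 2.43 at 3 weeks and 40.7 at 6 months, which was 0.389, 0.120, 0.124 and 0.114 times the Insl3 level. Reads in the shared bases cannot be told apart by gene.

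**Figure D3:**
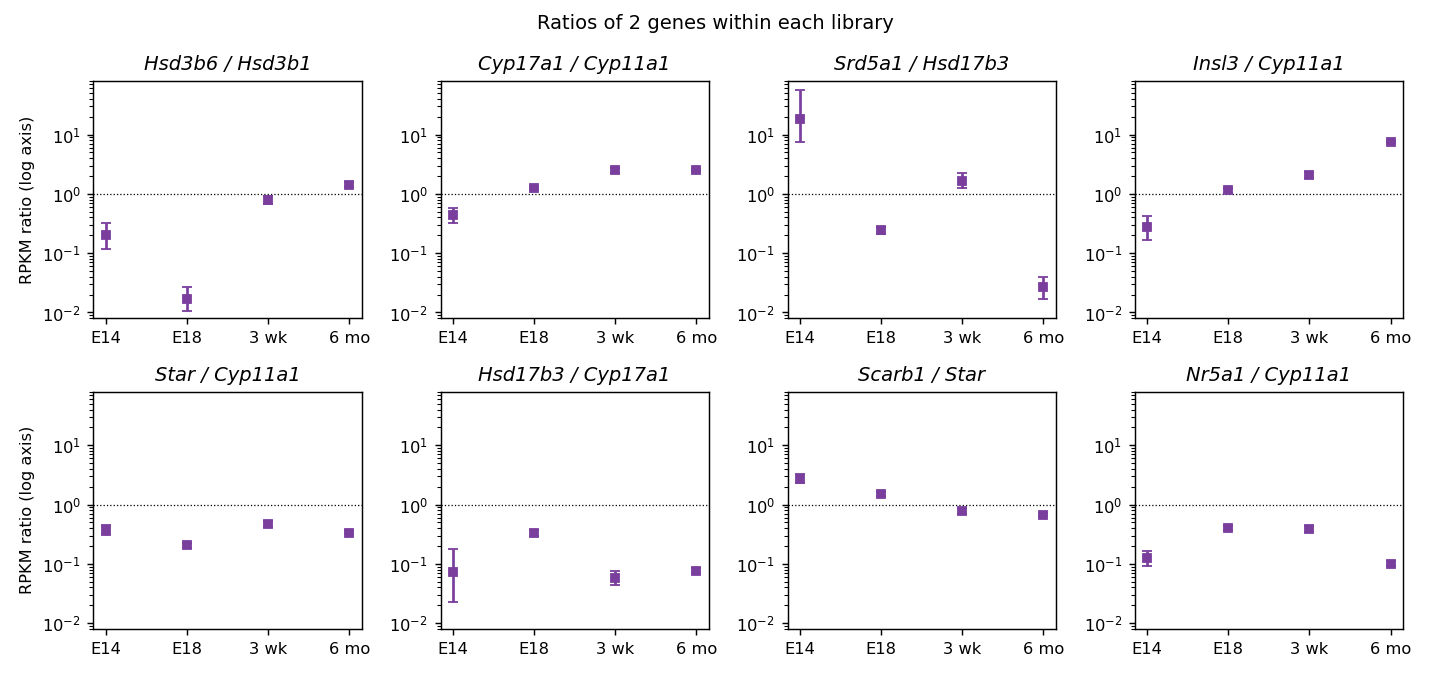
RPKM ratio of 8 pairs of genes within each library (log axis), with exact 95% Clopper-Pearson intervals from the reads; the dotted line marks equal levels. Hsd3b6 passes Hsd3b1 at 6 months (1.43), Insl3 over Cyp11a1 climbs to 7.49, and Srd5a1 over Hsd17b3 is 1.66 at 3 weeks and 0.0264 at 6 months.

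The order of the genes within a library differed between stages. At E14 the highest were Scarb1 and Cyp11a1, which did not differ beyond counting error, and the neighbours from Srd5a1 through Hsd3b1, Cyp17a1 and Star to Insl3 did not differ from each other in turn. At E18 the order was Cyp17a1, Insl3, Cyp11a1, Hsd3b1, then Hsd17b3 and Nr5a1, which did not differ (1.05, 0.951 to 1.15), then Scarb1, Star, Srd5a1 and Hsd3b6. At 3 weeks Cyp17a1, Insl3, Cyp11a1 and Hsd3b1 again led, Hsd3b6 had moved up to the fifth place and Hsd17b3 was last. At 6 months the order was Insl3, Cyp17a1, Cyp11a1, then Hsd3b6 and Star (1.011, 0.939 to 1.09), then Hsd3b1 and Scarb1 (1.04, 0.961 to 1.13), then Hsd17b3, Nr5a1 and Srd5a1. The 2 pairs given with intervals did not differ beyond counting error.

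The patterns most like these were sought among 2880 established protein-coding symbols with a mean of at least 5 RPKM, by the root mean square distance between log2(RPKM + 1) profiles over the 4 libraries, each centred on its own mean. Hsd3b1 and Nr5a1 were each other's nearest (distance 0.17). Cyp11a1 was nearest to Ptgds (0.35), the prostaglandin D synthase, then Gstm1 (0.36) and Hsd17b3 (0.42), and Hsd17b3 was nearest to Cyp11a1 (0.42). Star was nearest to Ephx1 (0.26), an epoxide hydrolase with 0.859, 5.95, 4.63 and 23.0 RPKM. Cyp17a1 was nearest to Acsbg1 (0.59), a fatty acyl-CoA ligase, and Scarb1 to Tns1 (0.21).

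Insl3 had no close neighbour, with Cyp17a1 (0.79), Ace (0.998) and Jak3 (1.03) the nearest, Ace standing at 58.5 RPKM at 6 months. Jak3 shares exon bases with Insl3, so the same reads may lie behind both of their profiles. Hsd3b6 was nearest to Cd72 (0.05) and Rnf126 (0.05), the latter with 5.46, 5.15, 30.1 and 78.1 RPKM. Srd5a1 was nearest to the RNA-binding protein gene Ptbp3 (0.04) and the transcription factor gene Sp3 (0.12). The pseudocount of 1 compresses low levels on this scale, so a small distance does not mean equal folds in RPKM. Between E18 and 6 months Srd5a1 went from 3.04 to 0.243 RPKM and Ptbp3 from 13.2 to 3.39. Hsd3b6 went from 0.324 to 16.2 RPKM and Cd72 from 1.30 to 29.3. With 4 libraries many genes share a profile, and the distance is a description.

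The other steroid enzymes and their electron donors had a lower median difference at E18 than the 10 genes. Of 32 entries in that list 19 were measured, of which 4 were higher than at E14 and 0 lower (median 0.28): Hsd17b1 (3.68), the ferredoxin reductase Fdxr, which passes electrons to Cyp11a1 (1.05 and 5.98 RPKM), the estrogen sulfotransferase Sult1e1 (0.0204 and 1.41) and Hsd11b2, which inactivates corticosterone (0.737 and 2.48). Fdx1, the partner of Fdxr, stood at 1.39 and 3.55 RPKM, and Por, which serves Cyp17a1, at 2.44 and 3.47. Over all entries the shares were 2.17% higher and 1.34% lower. Of 28 measured Leydig cell receptors and regulators 8 were higher and 0 lower (median 0.55), among them the Sertoli ligand Dhh (0.239 and 7.64), Wt1 (1.64 and 7.95) and Tcf21 (10.1 and 35.2). Gata4 was also higher (0.237 and 2.13). Cholesterol supply had 1 of 19 measured genes higher, the esterase Nceh1, and cholesterol synthesis had 0 of 22 past 2-fold in either direction. Under the 4 rescalings the enzymes had 2 to 5 higher and the regulators 5 to 8, with 0 lower in both. Of all entries 1.08% to 2.35% were higher and 1.10% to 1.84% lower under them.

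From E18 to 3 weeks the pathway lists had more genes lower than higher, where all entries had 32.0% higher and 10.5% lower, and that direction depended on the scaling. With libraries rescaled over ribosomal protein genes, 5 enzymes were higher and 2 lower, cholesterol supply had 5 higher and 0 lower, cholesterol synthesis 6 and 0, and regulators 3 and 3. Of all entries 54.8% were higher and 2.58% lower under that rescaling. The list medians there were -0.06, 0.27, 0.41 and 0.01, each below the 1.13 of all entries. With libraries rescaled to an equal sum, cholesterol synthesis had 3 higher and 1 lower, beside 37.0% and 8.23% of all entries. Steroid enzymes had 0 of 19 higher and 5 lower (median -0.65): Hsd17b1 (-3.45), Hsd11b2 (-1.63), Hsd17b10 (-1.44), Fdxr (-1.10) and Hsd3b4 (-1.01), whose sequence is shared in full. Cholesterol supply had 2 of 19 higher and 5 lower (median -0.49). Stard6, a relative of Star, was the highest of these (0.245 and 23.2 RPKM) with the cholesterol esterifying enzyme Soat1 (4.17 and 9.70), and Plin2, Lrp1 and Vdac1 were among the lower genes. Spermatocyte and spermatid markers summed to 8.60 RPKM at E18 and 848 at 3 weeks. The part of germ cells in the values of the pathway lists was not tested.

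Cholesterol synthesis had 2 of 22 higher at 3 weeks, Insig2 (1.89 and 7.44) and the squalene synthase Fdft1 (5.60 and 14.1), and 3 lower, Mvk and Insig1 among them, a share lower near that of all entries (median -0.45). Receptors and regulators had 2 of 28 higher, Crem (0.879 and 9.30) and Nr0b1, the repressor DAX1 (0.549 and 2.83), and 12 lower (median -0.85), among them Tcf21 (35.2 and 4.06), Gli1 (7.11 and 0.691) and Nr2f2 (15.8 and 3.58). The luteinizing hormone receptor Lhcgr was at 0.0606 RPKM at E14 and 0.666 at E18, then 0.960 at 3 weeks and 1.36 at 6 months. Its RPKM at E18 was 10.99 times that at E14 (4.75 to 31.2), on 58 and 6 reads, and at 6 months 2.04 times that at E18 (1.48 to 2.84). At these low levels the pseudocount of 1 kept its log2(RPKM + 1) differences under 2-fold, and it is not among the genes counted as higher. Its ratio to Cyp11a1 was highest at 3 weeks (0.102, 0.0799 to 0.128), against 0.0226 (0.0171 to 0.0293) at E18 and 0.0285 (0.0237 to 0.0342) at 6 months.

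From 3 weeks to 6 months, when 9.73% of all entries were higher and 14.1% lower, the shares of higher genes in the enzyme and cholesterol lists were near that background. Steroid enzymes had 2 of 19 higher, Sult1e1 (0.538 and 9.44 RPKM) and the 21-hydroxylase Cyp21a1 (0.0551 and 4.65), and 1 lower, the cytochrome Cyb5 (9.15 and 3.38), with a median of -0.19. Cholesterol supply had 2 of 19 higher, the hormone-sensitive lipase Lipe (1.38 and 21.1) and the lipid droplet protein Plin2 (1.21 and 5.23), and 1 lower, Soat1 (median -0.17). Spermatocyte and spermatid markers summed to 848 RPKM at 3 weeks and 7207 at 6 months. The part of germ cells in the Lipe values was not tested. Cholesterol synthesis had 2 of 22 higher, Fdps (4.13 and 10.1) and Fdft1 (14.1 and 29.7), and 0 lower (median -0.03). Receptors and regulators had 1 of 28 higher, the orphan receptor Nr4a1 (0.892 and 4.16), and 5 lower (median -0.34), led by Igf1 (4.58 and 0.788) and Tcf21 (4.06 and 0.911). By the median of ratios the regulators had 2 higher and 1 lower instead, beside 17.2% and 4.35% of all entries.

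Between E18 and 6 months 32.9% of all entries were higher and 15.4% lower (median 0.20). The enzyme list had 2 of 19 higher and 4 lower (median -0.64), cholesterol supply 2 and 5 of 19 (median -0.59), cholesterol synthesis 1 and 4 of 22 (median -0.22) and receptors and regulators 1 and 15 of 28 (median -1.25). The shares of lower enzymes and cholesterol synthesis genes were near the background. Over ribosomal protein genes the counts were 4 higher and 2 lower, 5 and 0, 7 and 0, and 5 and 9 in the same order of lists. Of all entries 51.1% were higher and 3.81% lower under that rescaling. The list medians there were 0.31, 0.66, 0.75 and -0.24, each below the 1.05 of all entries. The counts of the first 3 lists thus changed direction with the scaling, while their medians stayed below that of all entries. Cholesterol synthesis also had 2 higher and 1 lower by the median of ratios, with a median of 0.002 beside 0.41 over all entries. Over protein-coding genes the counts were 2 and 8, 2 and 9, 1 and 8, and 1 and 20, beside 26.6% and 24.1% of all entries. Large differences were those of Stard6 (4.94), Lipe (3.85), Crem (2.91), Hsd17b1 (-3.72) and Tcf21 (-4.25). Spermatocyte and spermatid markers summed to 8.60 RPKM at E18 and 7207 at 6 months. The part of germ cells in the Stard6, Lipe and Crem values was not tested. Rxfp2, the receptor of Insl3, lay between 0.185 and 0.673 RPKM in the 4 libraries, at least 1 order of magnitude below its ligand in all but the E14 library.

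Of 6 listed fetal markers 4 were measured. At E18 against E14, 2 of them were higher and 0 lower, beside 2.17% and 1.34% of all entries. All 4 were lower at 3 weeks than at E18 and lower at 6 months than at E18, where 10.5% and 15.4% of all entries were lower. Over ribosomal protein genes 2 of 4 were lower in each case, beside 2.58% and 3.81% of all entries. Thbs2 had a level of 10.5 RPKM at E14 and 10.1 at E18, then 0.617 at 3 weeks and 0.113 at 6 months. In the same order Dlk1 stood at 17.96, 18.6, 0.130 and 0.0198 RPKM. Mc2r, the corticotropin receptor, stayed at or below 0.198 RPKM. Of 9 adult markers 6 were measured, of which 3 were higher and 0 lower at E18 against E14. At 3 weeks against E18, 0 were higher and 1 lower (Ptgds), beside 32.0% and 10.5% of all entries. At 6 months against 3 weeks, 2 were higher and 0 lower, beside 9.73% and 14.1%. At 6 months against E18 the counts were 1 and 0, beside 32.9% and 15.4%. Sult1e1 was higher at 6 months than at 3 weeks and E18, Ptgds stood at 0.343, 8.504, 1.05 and 17.3 RPKM, higher at 6 months than at 3 weeks, and Vcam1 lay between 0.412 and 1.17. Stroma outside Leydig cells also makes Thbs2 and Dlk1, and the smooth muscle markers summed to 813 RPKM at E18, 53.1 at 3 weeks and 73.0 at 6 months; the part of such cells in these values was not tested.

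Markers of other cells moved beside these genes. Adrenal cortex also makes Star, Cyp11a1 and Hsd3b1, and its 6 markers summed to 6.69 RPKM at E14 and 5.10 at E18, then 4.74 at 3 weeks and 9.78 at 6 months, with none at 0. Cyp11b1 stood at 1.36, 0.487, 1.17 and 0.489 RPKM, and Cyp21a1 at 1.31, 0.860, 0.0551 and 4.65, each below Cyp11a1 in the same library. Akr1b7, the highest of the list at E14, was at 3.39 RPKM there, above Cyp11a1 at 3.18. Kidney tubule markers summed to 41.8 RPKM at E18 and at most 2.17 elsewhere, and epididymis markers to 66.4 RPKM at 3 weeks and at most 3.24 elsewhere, with Crisp1 the highest at 41.5 RPKM at 3 weeks. Their part in the levels of the 10 genes and of the genes in the pathway lists was not tested.

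**Figure D4:**
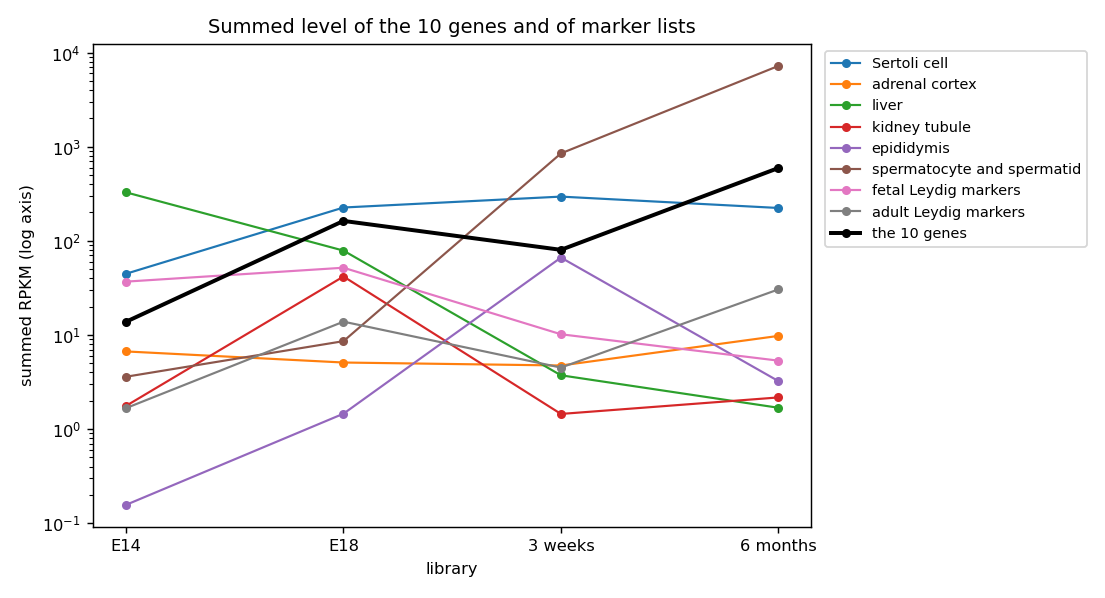
Summed RPKM (log axis) of the 10 genes (black) and of 8 marker lists in each library; points are single libraries. The 10 genes sum to 13.8, 163, 80.2 and 593 RPKM, while spermatocyte and spermatid markers reach 7207 at 6 months and adrenal cortex markers stay between 4.74 and 9.78.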

How the data were processed

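RNA from mouse testis was sequenced at 4 stages, 1 library each. The deposited files give RPKM, computed by the authors. The submitters' processing notes list TopHat2 and mm10. The counter, the annotation and the handling of strand and of multiply mapped reads were not given in the sources used here. Per the labels' protocols, ribosomal RNA was depleted, polyadenylated RNA isolated and a directional kit used.

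Differences were taken as log2(RPKM + 1), later minus earlier, so changes of low genes are understated by the pseudocount of 1. A gene was called higher or lower at 2-fold or more, over entries whose highest library had 1 RPKM or more. Reads behind the values were recovered from the steps of the RPKM values for 99.997% of the 59564 entries that no library listed at 0 (relative tolerance 1e-09). Each is the smallest whole number that fits, and a lost common factor makes the reads too few and an interval too wide. The length recovered for Cyp17a1, 1096 bases against 2769 annotated exon bases, may show such a loss, so no sums of reads over genes are given. Poisson intervals were used for levels and Clopper-Pearson intervals for ratios. PCR copies are counted as separate reads, so intervals cover counting error only.

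The genes and lists were chosen with earlier results of these data known. Named genes were the 10, up to 4 per direction and list past 2-fold, a set of pathway genes always given, and the 3 nearest patterns of each gene. Positions came from GENCODE vM21 and promoters from RefSeq by symbol. Rescaling over ribosomal protein genes (83 genes), over protein-coding genes, by the median of ratios or to an equal sum, a pseudocount of 0.1, other minimums and a 4-fold limit were tried. The procedure was tested on simulated data with Python 3.11.15 and SciPy 1.17.1. The simulated reads varied by counting error alone, and the check of recovered reads could not detect a lost common factor. Protein sequences were not used here. Some genes of the pathway lists are counted but not reported here by name.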

Additional observations from a re-analysis of the deposited data

How the results depend on the processing

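The count of genes past 2-fold among the 10 was 8, 6, 8 and 6 in the comparisons of E18 with E14, 3 weeks with E18, 6 months with 3 weeks and 6 months with E18. Of all entries 2.17%, 32.0%, 9.73% and 32.9% were higher and 1.34%, 10.5%, 14.1% and 15.4% lower in the same order. A 4-fold limit gave 2, 4 and 2 in the last 3 of these, as 1 higher and 1 lower, 4 and 0, and 2 and 0. The shares of all entries past 4-fold were 16.1% and 1.98%, 3.20% and 1.80%, and 18.1% and 3.24%. Rescaling over ribosomal protein genes gave 2 for 3 weeks with E18, 1 higher and 1 lower, beside 54.8% and 2.58% of all entries. It moved the median of all entries there from 0.46 to 1.13. The cause of the dependence on scaling was not tested. Under the other alternatives tried the 4 counts stayed within 1.5 times. Of 40 single differences, 28 were past 2-fold. Still past 2-fold on the same side were all 28 with a pseudocount of 0.1. There were 27 by the median of ratios, 27 over protein-coding genes, 26 with an equal sum and 23 over ribosomal protein genes. The called difference that changed sign was Nr5a1 at 6 months against E18, at 0.14 over ribosomal protein genes. Ratios within a library do not depend on these scalings. Hsd17b3 at E14 rests on 5 reads, Hsd3b6 at E14 and E18 on 20 each. No paired analysis was possible because each stage has 1 library. The rescalings of the pathway lists were chosen after seeing the data. The median of all entries at 6 months against E18 ran from -0.11 over protein-coding genes to 1.05 over ribosomal protein genes.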
